A study of Mus musculus with 14 samples.

Results

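Unstimulated dendritic cell cultures of the second experiment were compared with those of the first, array by array within each pre-treatment. The members are the 6 arrays that received no stimulus, of 14 arrays in the series: 3 labelled biological replicate 1 and 3 labelled replicate 2, each set holding DMSO, CLIK148 and CA074Me. Every array came from BALB/c bone marrow progenitors grown for 8 days in recombinant granulocyte-macrophage colony-stimulating factor (GM-CSF) and fed on days 3 and 6. The cells of a DMSO array received 0.01% of this solvent for 1 h, those of a CLIK148 array 5 µM of this cathepsin L inhibitor, and those of a CA074Me array 5 µM of this cathepsin B inhibitor. The other 8 arrays, used only to ask whether the same differences appeared after stimulation, hold CpG oligonucleotide at 25 µg/mL (with DMSO or CLIK148) or tumour necrosis factor alpha (TNF) at 500 U/mL (with DMSO or CA074Me), in both experiments. The labels do not say how old the mice were, of which sex, or whether the cultures of an experiment shared marrow.

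Cultures of bone marrow in GM-CSF are mixed. They yield cells with features of conventional dendritic cells and of monocyte-derived macrophages, beside granulocytes and their precursors, and the cells can mature spontaneously when they are fed or handled. GM-CSF signals through a receptor of an alpha and a beta chain to the kinase JAK2 and the transcription factor STAT5. Programmes commonly followed in such cells are maturation, with the costimulatory molecules CD80 and CD86, the chemokine receptor CCR7 and inflammatory cytokines, and alternative activation, with the mannose receptor and the secreted protein RELM alpha. Array values come from whole cultures, so fewer cells of a type and less RNA per cell cannot be told apart.

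Itgax and Flt3 of the dendritic cell marker list, and H2-Aa and H2-Ab1 of the class II list, exceeded 7.52 log2, the median of all values, on every unstimulated array. The class II genes H2-Aa and H2-Ab1 lay between 14.61 and 15.09 log2 on the 6 arrays, and Itgax, which encodes CD11c, between 11.21 and 12.08. Flt3, a receptor gene of dendritic cells and their progenitors, lay between 8.41 and 8.61 log2, and Xcr1, a marker of cross-presenting dendritic cells, was not bright enough to test. Xist, the RNA of the inactive X chromosome, read 13.53, 13.25 and 13.01 log2 in experiment 1 (DMSO, CLIK148 and CA074Me, the order used throughout) and 13.14, 13.10 and 12.95 in experiment 2. It was called lower (-0.20 ± 0.06, adjusted p = 0.0278), but the experiments overlapped and its 3 probe sets gave -0.40 to 0.29. The Y-linked genes Eif2s3y, Kdm5d and Uty were too dim to test.

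The arrays were of like quality by most measures. Within an experiment the 3 profiles correlated with r from 0.9962 to 0.9990 over 11738 genes, and between experiments with r from 0.9805 to 0.9845. The DMSO array of experiment 1 stood apart in a hybridization control: the 6 BioB spike-in probe sets read 9.42 to 10.09 log2 there, against 7.60 to 8.26 on the other 5 unstimulated arrays and 7.57 to 8.32 on the 8 stimulated ones. The 3 probe sets for 18S ribosomal RNA averaged 0.22 to 0.53 log2 higher in experiment 2, and 0.09 to 0.56 log2 higher on its stimulated arrays. The part of these controls in the results was not tested, but counts without the DMSO pair are given below. With a single contrast between 2 experiments, culture and any shared step of labelling or hybridization cannot be told apart.

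The difference between experiments (experiment 2 minus experiment 1, in log2 units, called the gap here) exceeded that between pre-treatments. Of the sum of squares over the 6 arrays, the experiment held 82.7%, the pre-treatment 10.1% and the remainder 7.16%. The gap had a standard deviation over genes of 0.30 log2 for DMSO, 0.29 for CLIK148 and 0.31 for CA074Me, and the differences between pre-treatments within an experiment had standard deviations of 0.07 to 0.14. As a description across 11738 genes, which are not independent, the gaps of the 3 pairs correlated with r = 0.918 for DMSO and CLIK148, 0.879 for DMSO and CA074Me, and 0.87 for CLIK148 and CA074Me.

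In limma, with the pre-treatment as a block, 4762 of 11738 genes had an adjusted p under 0.05. Experiment 2 was higher for 3155 of them, 26.9% of the genes tested, and lower for 1607, 13.7%. Each count of called list members below is to be read beside these shares. Most differences were small: the median size was 0.11 log2, and 150 called genes differed at least 2-fold, 80 higher (0.682%) and 70 lower (0.596%). The larger ones leaned to the lower side, with 15 of the 22 called genes past 4-fold lower in experiment 2. Of the called genes 66.3% were higher, against 56.3% after cyclic loess and 56.6% after scaling to reference genes. For 158 called genes, 12 of the 150 past 2-fold, all 3 arrays of 1 experiment lay under the brightness filter of 7.52 log2. Such a gene was tested only through the experiment where it is high, so its difference has no measured low side and its call is no support. Among the lists these are Ms4a1 and Ly6d (lymphocyte), Il12a, Lif and Csf3 (cytokines, Lif also GM-CSF), Ccr3 (eosinophil), Cd5l (macrophage), Apoc1 (lipid), Vldlr (ATF4), Pecam1 (adhesion) and Dcn (stromal). Without the DMSO pair 3320 genes were called, 2209 higher and 1111 lower. The p-values measure how well a gap recurred over 3 pre-treatments in the same 2 experiments, and do not extend to further experiments.

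Monocyte genes were much lower in experiment 2. Fn1, which encodes the matrix protein fibronectin, read 13.39, 12.84 and 12.99 log2 in experiment 1 and 9.06, 8.87 and 8.66 in experiment 2. All 3 arrays of experiment 1 stood high and all 3 of experiment 2 low, a difference of -4.21 ± 0.07 log2 (standard error, n = 3 pairs; adjusted p = 1.96e-11), or 18.5-fold. The gene's other probe set fell by 1.34 log2, so the direction is shared and the size is not. Ccr2, the chemokine receptor that draws monocytes out of the marrow, read 13.15, 13.08 and 13.01 in experiment 1 and 10.53, 10.56 and 10.15 in experiment 2. Its groups were far apart, with a difference of -2.67 ± 0.07 log2 (adjusted p = 2.13e-10), and its 4 probe sets gave -2.67 to -1.95. F13a1, coagulation factor XIII A chain and a monocyte marker, went from 11.34, 11.17 and 10.88 to 9.60, 9.64 and 9.28 (-1.62 ± 0.06). Of 9 monocyte markers 6 were lower, Clec4e, Vcan (-0.90) and Ms4a4c (-0.44) among them, and the list's median was -0.90 against 0.04 for all genes tested. Hp (-0.10), Nr4a1 (0.04) and Plac8 (0.17) did not pass. The summed linear signal of the 9 was 34000 to 40200 on the arrays of experiment 1 and 13800 to 17300 on those of experiment 2.

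**Figure D1:**
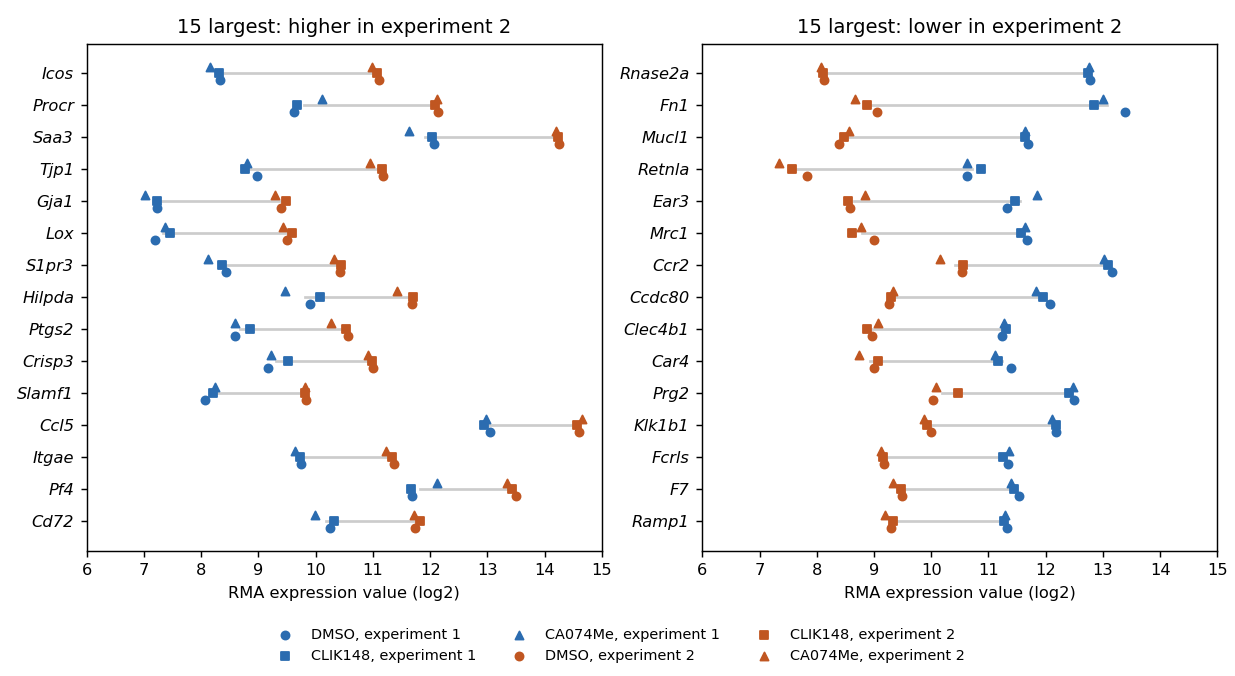
RMA expression value in log2 (horizontal axis) of the 15 genes with the largest called difference in each direction, on each of the 6 unstimulated arrays. Colour gives the experiment, marker shape the pre-treatment, and the grey line joins the experiment means. For all 30 genes the 3 arrays of an experiment lie on 1 side of the other 3, with Fn1 and Rnase2a furthest apart. The genes were chosen for large called differences with 1 sign in 3 pairs, which favours such separation. Of all 11738 genes tested, 3884 were higher and 2004 lower without overlap between the experiments.

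Genes of alternative activation were mostly lower as well. Retnla, which encodes RELM alpha, read 10.62, 10.87 and 10.63 log2 in experiment 1 and 7.83, 7.57 and 7.34 in experiment 2. The experiments did not overlap, at -3.13 ± 0.09 log2 (adjusted p = 4.67e-10), and since experiment 2 lies near the 7.52 filter the size may be understated. Mrc1, the mannose receptor gene, went from 11.68, 11.56 and 11.63 to 9.01, 8.62 and 8.77, a difference of -2.83 ± 0.06 log2 or 7.09-fold. Of 20 genes of this list 12 were lower and 5 higher, with a median of -0.32 log2, and 7 were lower at least 2-fold: Retnla, Mrc1, the transcription factor genes Klf4 (-1.18) and Egr2 (-1.17), the lectin gene Cd209a (-1.16), the chemokine gene Ccl24 (-1.06) and the fatty acid binding protein gene Fabp4 (-1.01). The 4 probe sets of Fabp4 gave -1.01 to 0.04. The list did not move as a block. Arg1, arginase 1, was 0.78 log2 higher and Tgm2, transglutaminase 2, 0.93 higher in experiment 2, and Chil3, whose product Ym1 is a classic member of the programme, differed by -0.04 log2 without passing the test.

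Macrophage and osteoclast markers, lysosomal genes and lipid handling followed the same direction with smaller sizes. Of 14 macrophage markers tested 8 were lower and 4 higher (median -0.17 log2), Cd5l called only through 1 experiment. Mrc1, Apoe (-0.66), Cd68 (-0.65) and Mertk (-0.62) were lower, but Maf and the scavenger receptor gene Marco were 0.95 (probe sets -0.02 to 0.95) and 1.06 log2 higher (0.54 to 1.06), and Cd163, Folr2, Timd4 and Vsig4 were too dim to test. The osteoclast list had 3 lower and 1 higher of 6 tested, led by the proton pump subunit gene Atp6v0d2 at -1.34 ± 0.06 log2 (from 11.09, 11.03 and 11.27 to 9.79, 9.80 and 9.78) and the protease gene Ctsk at -0.94. Of 21 lysosomal genes 12 were lower and 1 higher (median -0.17), among them the lysosomal acid lipase gene Lipa at -0.86. In lipid uptake, storage and efflux 13 of 21 were lower and 4 higher (median -0.27), with lipoprotein lipase, Lpl, at -0.79 ± 0.06 and the sterol exporter gene Abcg1 at -0.70. Apoc1 in that list was called only through 1 experiment. Of 15 genes for the uptake of apoptotic cells and complement C1q, 10 were lower, such as the bridging protein gene Pros1 at -1.02, and 3 higher.

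The proteases that the study's inhibitors target moved apart. Ctsl, cathepsin L, was higher in experiment 2 by 0.40 ± 0.06 log2, from 13.36, 13.31 and 13.47 to 13.78, 13.82 and 13.73. Ctsb, cathepsin B, read 13.69, 13.47 and 13.76 and then 13.43, 13.44 and 13.38, a difference of -0.22 ± 0.07 (adjusted p = 0.0182). The gap of Ctsl rests on its brighter probe set, since its probe sets gave -0.07 and 0.40. Among 19 cathepsins and inhibitors 7 were lower and 3 higher, beside 13.7% and 26.9% of all genes.

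Eosinophil genes were lower throughout. Prg2, which encodes the granule major basic protein, read 12.50, 12.41 and 12.48 log2 in experiment 1 and 10.03, 10.47 and 10.08 in experiment 2, a difference of -2.27 ± 0.09 (adjusted p = 7.5e-09). Siglecf, a surface lectin of mouse eosinophils and alveolar macrophages, went from 10.52, 10.47 and 10.64 to 8.81, 8.85 and 8.76 (-1.74 ± 0.06). Epx, eosinophil peroxidase, went from 10.28, 9.98 and 10.24 to 8.64, 8.92 and 8.58 (-1.45 ± 0.10). The 6 eosinophil markers tested were lower, Ccr3 only through its experiment 1 values, with a median of -1.21 log2, and Il5ra was too dim. The summed linear signal of the 7 was 9740 to 10700 in experiment 1 and 3180 to 3710 in experiment 2.

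The largest reduction of all belonged to a ribonuclease of the eosinophil-associated family. Rnase2a read 12.77, 12.73 and 12.75 log2 in experiment 1 and 8.12, 8.11 and 8.08 in experiment 2, and the difference of -4.65 ± 0.05 (adjusted p = 2.34e-13) is 25.0-fold. Its relative Ear3 went from 11.32, 11.47 and 11.84 to 8.58, 8.54 and 8.85 (-2.89 ± 0.06). The arrays of each experiment lay close together for both genes and far from the other experiment. The copies of this family are nearly identical in sequence, so a probe set may read more than the gene it is named for. Alveolar macrophages and alternatively activated cells also express such ribonucleases, and the array cannot assign them to a cell.

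Another 8 genes complete the 15 largest reductions. Mucl1, a mucin-like gene, fell from 11.69, 11.63 and 11.64 to 8.38, 8.47 and 8.57 log2, or 9.06-fold. Ccdc80, whose product binds extracellular matrix, differed by -2.65, the C-type lectin gene Clec4b1 by -2.30, Car4, a carbonic anhydrase on the cell surface, by -2.30, and the kallikrein-related gene Klk1b1 by -2.23 log2. Fcrls, an Fc receptor-like scavenger receptor, differed by -2.16, F7, coagulation factor VII, by -2.03, and Ramp1, a partner of the receptor for calcitonin gene-related peptide, by -2.02. All had standard errors of 0.05 or 0.06. The probe sets of Ccdc80 (-2.65 to -1.08) and Ramp1 (-2.02 to -0.05) differed in size.

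Genes of dendritic cell maturation were more often higher in experiment 2. Ccl5, a chemokine of mature dendritic cells, read 13.04, 12.94 and 12.98 log2 in experiment 1 and 14.59, 14.56 and 14.66 in experiment 2, a rise of 1.61 ± 0.05 (adjusted p = 1.81e-09). Cd86, a ligand of CD28, rose from 11.65, 11.70 and 11.45 to 12.95, 12.95 and 12.81 (1.30 ± 0.05), and Cd80 from 10.00, 9.93 and 9.59 to 11.02, 10.92 and 10.92 (1.11 ± 0.07). The 4 probe sets of Cd80 gave 0.08 to 1.18. Ccr7, which guides mature cells to lymph nodes, was higher by 0.92 ± 0.05 log2. Of 24 genes 15 were higher and 4 lower (median 0.22 log2), and Cd40 (0.02) and the chemokine gene Ccl17 (-0.01) did not pass. The class II genes did not share this: 3 of 13 were higher and 2 lower, beside 26.9% and 13.7% of all genes. Their median was -0.01, or 0.02 without the DMSO pair.

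Inflammatory mediators were higher as a group, with exceptions that point the other way. Ptgs2, cyclooxygenase 2, read 8.59, 8.84 and 8.60 log2 in experiment 1 and 10.57, 10.52 and 10.27 in experiment 2, a rise of 1.78 ± 0.06 (adjusted p = 5.23e-09). Its 2 probe sets gave 0.80 and 1.78. Il12b, the p40 subunit of interleukins that prime T helper cells, rose from 9.82, 10.03 and 9.56 to 11.11, 10.98 and 10.91 (1.20 ± 0.07), and Il6 from 10.17, 10.06 and 9.58 to 11.14, 11.13 and 11.07 (1.18 ± 0.08). Inhba, an activin subunit, was 1.24 ± 0.08 log2 higher, although its probe sets ranged from -0.03 to 1.24. Il12a, Lif and Csf3 were called, but 1 experiment lay wholly under the filter for each, so those calls are no support. Of 17 genes tested, these 3 included, 12 were higher and 5 lower (median 0.47). Tnf was among the 5: it read 10.70, 10.67 and 10.43 and then 9.77, 9.87 and 9.97, a difference of -0.73 ± 0.08 (adjusted p = 2.12e-05). Targets and regulators of NF-kB did not move together, with 6 higher and 8 lower of 19.

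Chemokines split. Besides Ccl5, experiment 2 was higher for Pf4 (1.60), Ccl2 (1.24), Cxcl1 (1.23), Cxcl3 (1.18) and Ppbp (1.03), which draw monocytes or neutrophils or are stored in platelets. It was lower for Cxcl10, from 10.80, 10.82 and 10.39 to 9.02, 9.29 and 8.85 log2 (-1.62 ± 0.06, adjusted p = 5.64e-09), and for Ccl24 (-1.06) and Cxcl11 (-0.65). Cxcl10 and Cxcl11 are induced by interferons and Ccl24 belongs to alternative activation. In all, 10 of 23 chemokines were higher and 9 lower. For Cxcl3 the CA074Me array of experiment 1 stood near the other experiment, at 12.53 against 12.69 to 12.87, while DMSO and CLIK148 were at 10.93 and 11.30. Ppbp was uneven as well, with a gap of 0.24 for CA074Me against 1.49 for DMSO and 1.36 for CLIK148.

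Among the 15 largest rises 7 concern surface receptors and junctions. Icos, a costimulatory receptor best known on T cells, read 8.33, 8.30 and 8.15 log2 in experiment 1 and 11.10, 11.08 and 10.98 in experiment 2, or 6.92-fold more (2.79 ± 0.05; adjusted p = 1.96e-11; probe sets 1.41 to 2.79). Procr, the endothelial protein C receptor, went from 9.63, 9.67 and 10.10 to 12.14, 12.08 and 12.13 (2.31 ± 0.08). Tjp1, the tight junction protein ZO-1, differed by 2.25 and Gja1, the gap junction protein connexin 43, read 7.02 to 7.23 log2 in experiment 1, under the filter, and 9.29 to 9.48 in experiment 2. S1pr3, a receptor for sphingosine 1-phosphate, differed by 2.08, Slamf1 by 1.65 and the lectin-like receptor gene Cd72 by 1.58. The probe sets differed widely for Gja1 (0.07 to 2.23), S1pr3 (0.15 to 2.08) and Slamf1 (0.53 to 1.65).

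Secreted and adhesion proteins fill most of the other places. Saa3, an acute-phase serum amyloid of macrophages, read 12.07, 12.03 and 11.64 log2 in experiment 1 and 14.25, 14.24 and 14.19 in experiment 2 (2.31 ± 0.07). Lox, lysyl oxidase, which crosslinks collagen, read 7.19 to 7.45 in experiment 1, under the filter, and 9.43 to 9.59 in experiment 2, and its 3 probe sets gave 0.14 to 2.29. Crisp3, a cysteine-rich secreted protein, differed by 1.67. Itgae, the CD103 integrin chain of intestinal and cross-presenting dendritic cells, went from 9.74, 9.73 and 9.63 to 11.36, 11.33 and 11.23 (1.60 ± 0.05). Conventional dendritic cell markers were mixed: 8 of 16 were higher, among them Itgae, Kmo (0.74), Batf3 (0.62), Irf8 (0.32) and Irf4 (0.28). The 4 lower markers included Cd209a at -1.16 ± 0.05 and Itgax at -0.76 ± 0.06.

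**Figure D2:**
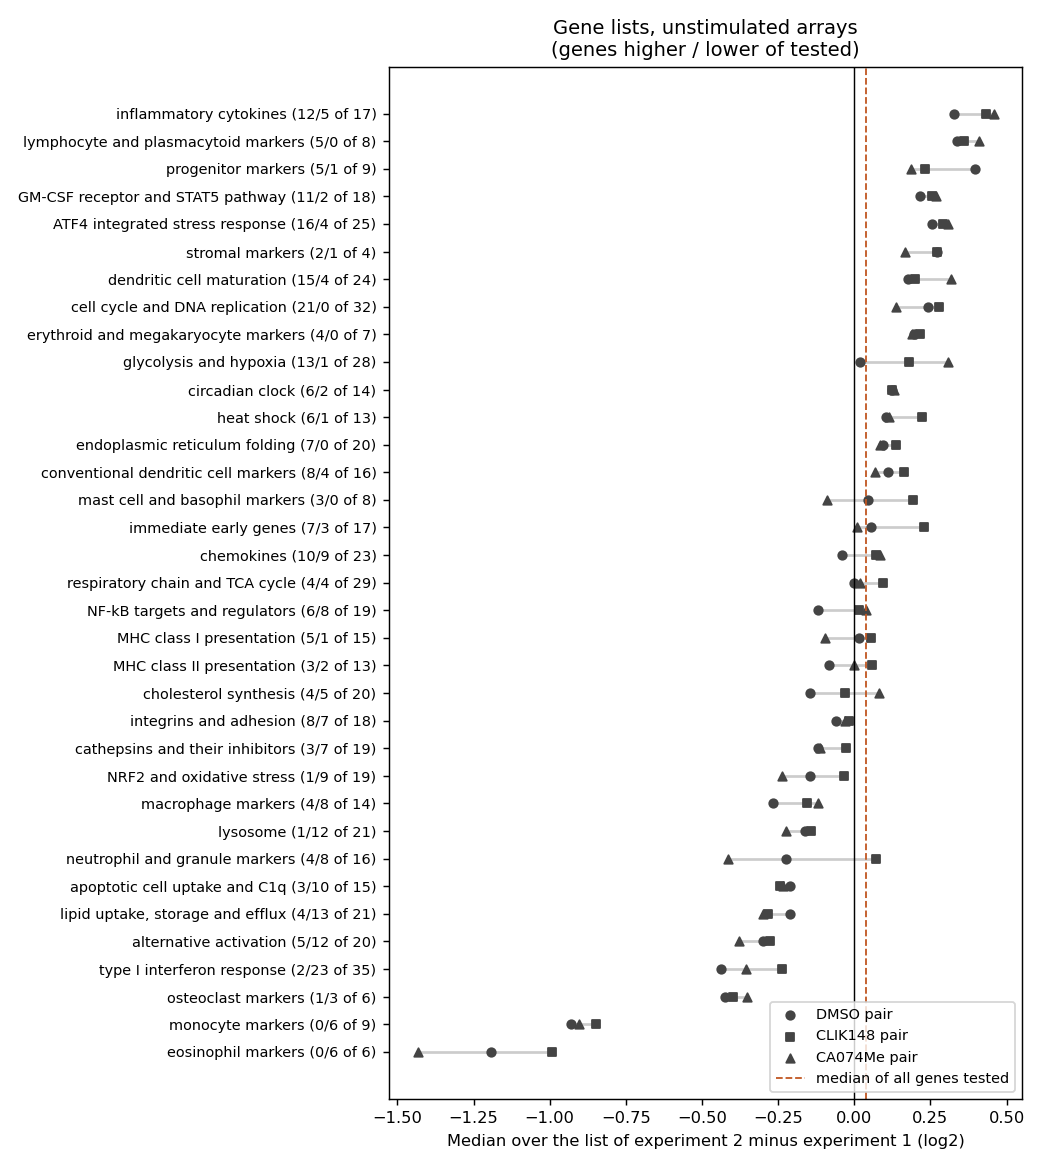
Median gap (experiment 2 minus experiment 1, log2) of the tested members of each gene list (sex-linked and reference genes not drawn), with 1 marker per pre-treatment pair; the dashed line is the median of all genes tested, 0.04, and each label gives genes called higher and lower of those tested. Eosinophil and monocyte markers lie furthest to the left in all 3 pairs, and inflammatory cytokines have the highest median over the mean gaps, 0.47. The medians include genes called only through 1 experiment, among them Il12a, Lif and Csf3 for the cytokines and Ccr3 for the eosinophil list.

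Type I interferon response genes were lower in experiment 2 without any stimulus. These genes serve antiviral defence, and many carry an interferon-stimulated response element in their promoters. Cmpk2, a mitochondrial nucleotide kinase gene of this programme, read 9.84, 9.74 and 9.78 log2 in experiment 1 and 8.97, 9.22 and 8.70 in experiment 2 (-0.83 ± 0.08, adjusted p = 1.65e-05), and its other probe set gave -0.11. Ifi204 went from 9.21, 9.44 and 9.36 to 8.62, 8.69 and 8.30 (-0.80 ± 0.08). Of 35 members 23 were lower and 2 higher, with a median of -0.33 log2, and no member differed 2-fold. The exceptions were Bst2, or tetherin, which rose from 12.12, 12.03 and 12.00 to 12.47, 12.50 and 12.38 (0.40 ± 0.05), and Usp18, a brake on interferon signalling (0.23 ± 0.05). Irf7, Ifih1, Irf9, Stat2, Mx2 and 5 others did not pass.

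Promoters show how the element is spread over members that moved in opposite directions. Ifit3 (-0.65 ± 0.07 log2; 9.91, 9.79 and 9.37, then 9.03, 9.18 and 8.93) and Ifit1 (-0.63 ± 0.08) were among the 5 lowest members, and Bst2 was the highest. The windows run from 250 bases before to 50 after the transcript start, read 5′ to 3′ along the gene, and are from RefSeq, build GRCm38.p6: chr19:34583279-34583578 on the plus strand, chr19:34640639-34640938 on the plus strand and chr8:71537423-71537722 on the minus strand. Capitals mark matches to GAAA, any 2 bases and GAAA again, on either strand, and overlapping matches are joined.
Ifit3: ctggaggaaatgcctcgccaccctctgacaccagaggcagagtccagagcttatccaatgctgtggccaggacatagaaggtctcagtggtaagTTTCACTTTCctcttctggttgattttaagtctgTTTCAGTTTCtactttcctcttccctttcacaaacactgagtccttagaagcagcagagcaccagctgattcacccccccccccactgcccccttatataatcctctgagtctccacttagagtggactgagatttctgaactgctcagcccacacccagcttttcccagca
Ifit1: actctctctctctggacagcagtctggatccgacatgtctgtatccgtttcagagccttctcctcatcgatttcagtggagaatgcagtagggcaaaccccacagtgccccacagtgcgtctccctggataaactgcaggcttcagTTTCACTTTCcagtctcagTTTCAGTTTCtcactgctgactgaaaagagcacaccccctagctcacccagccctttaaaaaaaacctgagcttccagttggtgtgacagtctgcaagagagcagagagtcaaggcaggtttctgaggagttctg
Bst2: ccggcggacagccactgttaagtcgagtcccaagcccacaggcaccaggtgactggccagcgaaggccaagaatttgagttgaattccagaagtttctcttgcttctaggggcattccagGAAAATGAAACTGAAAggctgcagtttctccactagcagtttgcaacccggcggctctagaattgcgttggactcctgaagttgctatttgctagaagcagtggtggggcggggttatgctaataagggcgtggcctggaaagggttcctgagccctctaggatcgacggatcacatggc
Of the 24 list members with a window of this length 15 held the motif in at least 1 window, against 3.73% of 9528 tested genes with such a window. Among those 15 members 9 were lower, 1 was higher and the rest did not pass, and among the 9 without a match 6 were lower. A match is a run of letters and shows no binding.

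Amino acid and stress genes under ATF4 were mostly higher. ATF4 is the transcription factor of the integrated stress response, and its targets supply amino acids and restrain growth. Ddit4, an inhibitor of the mTORC1 kinase, rose from 11.09, 11.15 and 10.50 log2 to 12.24, 12.25 and 11.87 (1.21 ± 0.06, adjusted p = 5.17e-08), and Asns, asparagine synthetase, from 8.75, 8.81 and 8.79 to 9.54, 9.60 and 9.47 (0.75 ± 0.05). Of 25 members 16 were higher and 4 lower (median 0.24 log2), the latter being Nupr1, Cebpb (-0.41), Phgdh (-0.19) and Cebpg (-0.18). Vldlr was called only through 1 experiment. Nupr1, a small stress-induced nuclear protein, went from 9.68, 9.59 and 9.40 to 8.73, 8.91 and 8.74 (-0.76 ± 0.06). Windows of the same kind are shown for Asns (chr6:7693160-7693459 on the minus strand) and Nupr1 (chr7:126625421-126625720 on the minus strand), which moved in opposite directions and both carry the composite element, TGATGNAA on either strand, in capitals.
Asns: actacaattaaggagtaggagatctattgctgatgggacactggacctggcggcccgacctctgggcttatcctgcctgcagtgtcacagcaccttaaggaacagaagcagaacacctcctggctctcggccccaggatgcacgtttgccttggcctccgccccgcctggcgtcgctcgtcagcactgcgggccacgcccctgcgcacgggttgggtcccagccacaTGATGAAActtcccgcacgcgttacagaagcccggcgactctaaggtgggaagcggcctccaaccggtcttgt
Nupr1: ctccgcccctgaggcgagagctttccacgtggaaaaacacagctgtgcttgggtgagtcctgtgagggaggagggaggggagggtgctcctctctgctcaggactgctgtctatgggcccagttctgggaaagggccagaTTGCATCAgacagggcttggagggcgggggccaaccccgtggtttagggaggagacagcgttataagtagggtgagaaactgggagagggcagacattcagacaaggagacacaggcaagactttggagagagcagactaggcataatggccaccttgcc
Of 22 members with a window 8 held it, against 2.69% of tested genes. Of those 8, 6 were higher and 1 lower, and of the 14 without it 8 were higher and 3 lower. Vldlr, called only through 1 experiment, is among the 8.

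**Figure D3:**
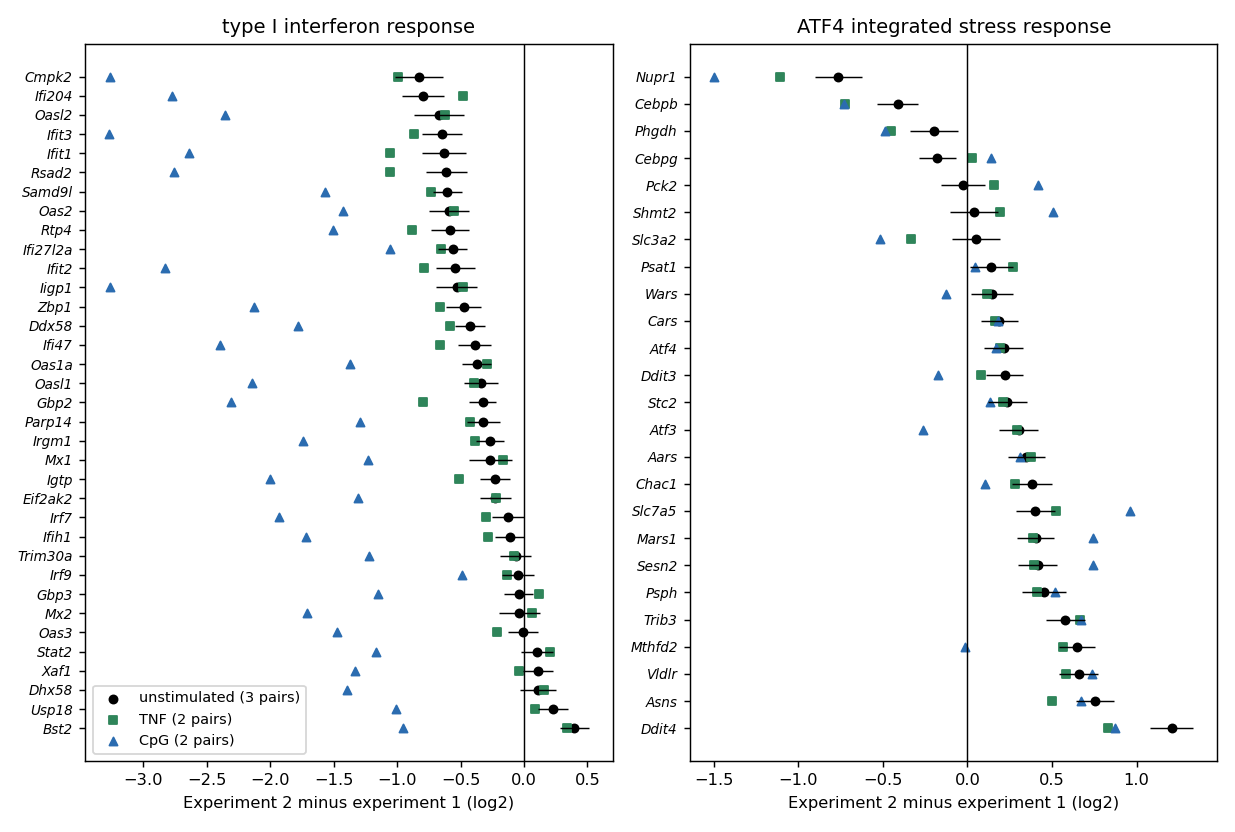
Gap in log2 (horizontal axis) of each tested member of the type I interferon and ATF4 lists without stimulus (black circles, 95% interval of the limma fit) and as the mean of 2 pairs after TNF (green squares) or CpG (blue triangles). Most interferon members lie at small negative values without stimulus and at -0.49 to -3.27 after CpG, while ATF4 members spread to both sides.

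Hypoxia-responsive genes and the cell cycle were higher to a smaller degree. Hilpda, a lipid droplet protein induced by low oxygen, read 9.91, 10.08 and 9.46 log2 and then 11.69, 11.71 and 11.43 (1.79 ± 0.06, adjusted p = 5.1e-09), and Vegfa rose by 1.03 ± 0.06. Of 28 glycolysis and hypoxia genes 13 were higher and 1, Pfkfb4 (-0.71), lower; the enzyme genes Ldha, Pgk1 and Aldoa were at 0.03, -0.03 and -0.05 and did not pass. The list's median differed between pairs, at 0.02 for DMSO, 0.18 for CLIK148 and 0.31 for CA074Me. Among 32 cell cycle and replication genes 21 were higher and the other 11 did not pass, with a median of 0.21. The replication genes Ccne2 (0.54), Mcm6 (0.50) and Mcm3 (0.42) led, and Mki67 was at -0.13 without passing. The probe sets gave 0.10 to 0.56 for Mcm6 and 0.11 to 0.42 for Mcm3. Respiratory chain and citric acid cycle genes showed little, with 4 higher and 4 lower of 29. In the list of NRF2 and oxidative stress genes 9 of 19 were lower and 1 higher, and Nqo1 at -0.91 ± 0.13 was shaped by its CA074Me array of experiment 1, at 10.19 beside 9.23 and 9.25 for DMSO and CLIK148.

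The GM-CSF pathway itself differed. Csf2ra, the ligand-specific alpha chain, was lower, from 11.33, 11.02 and 11.44 log2 to 10.69, 10.66 and 10.58 (-0.62 ± 0.08, adjusted p = 8.13e-05), whereas the shared beta chain gene Csf2rb differed by -0.06 and did not pass. Among the members that were higher, Ccnd2 differed by 0.84 ± 0.08, Socs3 by 0.82 ± 0.08, the high-affinity interleukin 2 receptor gene Il2ra by 0.59 and Cish by 0.29. Of 18 genes 11 were higher and 2, Csf2ra and Spi1, lower, with a median of 0.25 log2. Lif in that list was called only through 1 experiment. Immediate early genes were mixed, with 7 higher and 3 lower of 17, beside 26.9% and 13.7% of all genes. Egr1 (0.95) and Egr2 (-1.17) opposed each other.

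Markers of other cells moved with the experiment too. Among B cell markers Ighm rose from 11.46, 11.30 and 11.45 log2 to 12.51, 12.49 and 12.52 (1.10 ± 0.05), although its 11 probe sets gave -0.03 to 1.10, and Cd79b by 0.89. Ms4a1 read 7.11 to 7.21 in experiment 1, under the filter, and 8.09 to 8.37 in experiment 2. Of 8 lymphocyte and plasmacytoid markers tested 5 were higher, Ms4a1 and Ly6d only through experiment 2, and the defining genes Cd79a, Pax5, Ebf1, Cd3g, Cd8a and Ncr1 were too dim to test, and summed signals were 6670 to 7110 and 10900 to 11100. Megakaryocyte and erythroid markers gave 4 higher of 7, led by Pf4 (1.60 ± 0.09, from 11.69, 11.67 and 12.12 to 13.49, 13.43 and 13.35) and carbonic anhydrase 2, Car2 (1.30); the globin gene Hba-a1, Alas2 and Gata1 were too dim. Progenitor markers gave 5 higher of 9, with Cd34 at 0.86 and Kit at 0.85, and 1 lower, Cd93. Over all genes tested 26.9% were higher and 13.7% lower. Summed signals were 8890 to 10500 and 22000 to 22600 for the megakaryocyte and erythroid list (2320 to 2870 and 3130 to 3200 without Pf4 and Car2; median gap 0.19) and 5670 to 6010 and 6740 to 7710 for the progenitor list. The part of other cell types in the larger gaps was not tested.

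Neutrophil genes were mixed. The primary granule genes Mpo (0.67), Prtn3 (0.53) and Ctsg (0.36) and the secondary granule gene Lcn2 (0.32) were higher. Csf3r (-0.80), Mmp9 (-0.72), Mmp8 (-0.60), Cxcr2 (-0.59) and Camp (-0.57) were lower, as were Ltf (-0.28) and Fcnb (-0.29), and S100a8 and S100a9 were at -0.06 without passing. In all 8 of 16 were lower and 4 higher. The list's median was -0.22 in the DMSO pair, 0.07 in the CLIK148 pair and -0.42 in the CA074Me pair, so the pairs did not share a sign. Mast cell markers gave 3 higher of 8 tested, beside 26.9% of all genes, and 6 of 10 stromal markers, the collagen genes Col1a1, Col1a2 and Col3a1 among them, were too dim to test.

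Many of these differences were also present in the 8 stimulated arrays, which share no array with the 6 above. They come from the same 2 experiments, so a difference in culture or processing between these could recur there. The recurrence is therefore no independent replication. There 4397 of 12034 genes were called, 3248 higher (27%) and 1149 lower (9.55%). Among 11652 genes tested in both fits, 2876 were called in the same direction in both, which is 60.9% of the unstimulated calls and 66.1% of the stimulated ones, and 40 were called in opposite directions. Of the 150 genes past 2-fold, 144 had the same sign after stimulation and 128 were called with it. Higher genes made up 73.9% of stimulated calls, against 57.7% after cyclic loess and 72.2% after scaling to reference genes. The count was 2199 without the CLIK148 pair under CpG and 2590 without the DMSO pair under TNF.

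The 15 largest reductions persisted under both stimuli. Rnase2a gave mean gaps of -4.70 log2 under CpG and -4.69 under TNF, Fn1 -3.89 and -4.28, Mucl1 -3.09 and -3.07, and Retnla -3.04 and -3.12. All 15 kept their sign in each of the 4 stimulated pairs and were called in the stimulated fit. Their sign in the 3 unstimulated pairs was fixed by the rule that chose them. Of the 15 largest rises 12 kept their sign in the 4 stimulated pairs and were called, Icos at 2.54 and 2.42 and Itgae at 1.97 and 2.16. Gja1 and Lox are among the 12, and their unstimulated values in experiment 1 lay under the filter. The exceptions were Saa3, Ptgs2 and Ccl5: Saa3 had a gap of -0.01 under CpG and 0.58 under TNF, Ptgs2 -1.32 and 1.91, and Ccl5 -0.35 and 0.82. On the stimulated arrays Saa3 read 13.56 to 14.43 log2 in experiment 1 and 14.25 to 14.34 in experiment 2. Without stimulus experiment 2 already read 14.19 to 14.25.

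**Figure D4:**
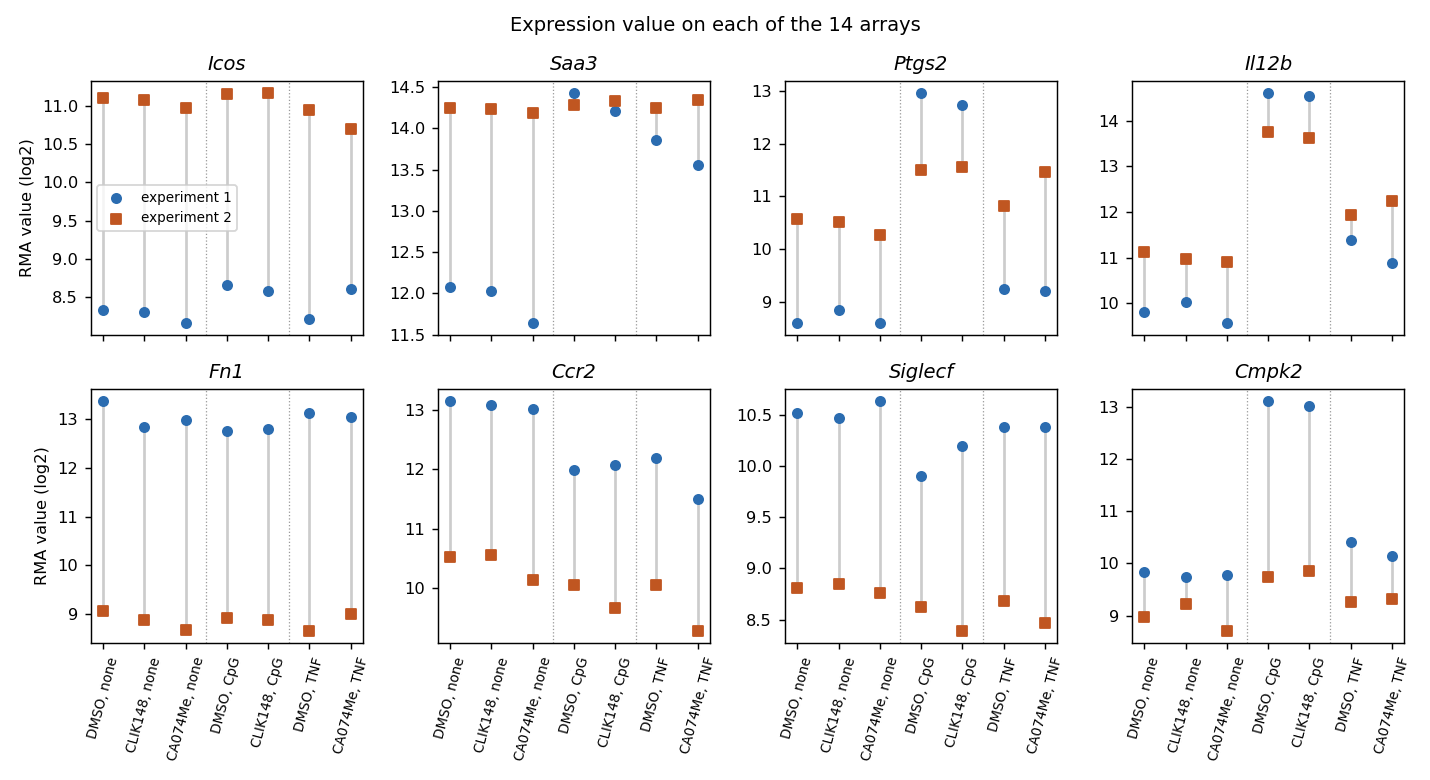
RMA value in log2 (vertical axis, separate scale per gene) of 8 genes on each of the 14 arrays, ordered by treatment, with experiment 1 as circles and experiment 2 as squares. Icos, Fn1, Ccr2 and Siglecf keep the same order in all 7 pairs, while Ptgs2 and Il12b are higher in experiment 2 without stimulus and lower after CpG.

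The gap changed with CpG for far more genes than with TNF. The gap under CpG minus the gap without stimulus was called for 3969 of 12172 genes (32.6%), 2566 higher and 1403 lower, and the corresponding count for TNF was 304 (2.5%), 124 and 180. As a description over 11738 genes, the gap correlated with the mean unstimulated gap with r = 0.51 and 0.597 in the 2 CpG pairs and 0.805 and 0.858 in the 2 TNF pairs. Higher genes were 64.7% of the CpG calls, but 49.1% after cyclic loess and 51.2% with reference genes. For TNF they were 40.8%, and 71.9% with reference genes, so no lean to a side is read from either. Without the DMSO pair under CpG 2007 genes were called. The TNF count was 69 without the unstimulated CLIK148 pair, 81 without the unstimulated DMSO pair, 84 without the DMSO pair under TNF and 178 without the unstimulated CA074Me pair.

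**Figure D5:**
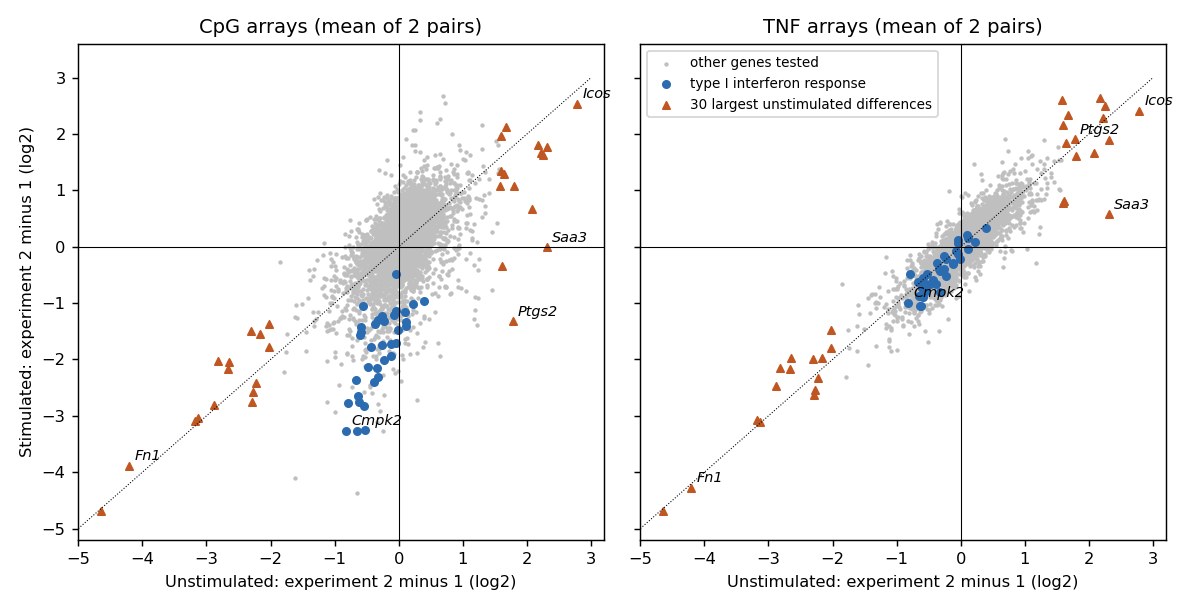
Gap (experiment 2 minus experiment 1, log2) of each of 11738 tested genes without stimulus (horizontal axis, 3 pairs) against the gap after CpG (left) or TNF (right), each the mean of 2 pairs; the dotted line marks equal gaps. Fn1 and Icos lie near the line in both panels, and the interferon genes (circles) fall below it after CpG. Saa3 leaves the line in both panels and Ptgs2 after CpG.

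The interferon list changed as a whole under CpG. All 35 members tested had a more negative gap under CpG than without stimulus, each called, beside 11.5% of all genes called more negative and 21.1% more positive, with a median difference of -1.47 log2 against 0.06 over all genes. Cmpk2 read 13.12 and 13.01 log2 under CpG in experiment 1 (DMSO and CLIK148) and 9.74 and 9.86 in experiment 2. Cxcl11 read 14.24 and 13.84 against 9.51 and 9.84, a gap of -4.37 under CpG and -0.65 without stimulus. Under TNF the list's median gap was -0.43, against -0.33 without stimulus. The inflammatory mediators turned as well, with a more negative gap under CpG called for 16 of 19. Il12b read 14.61 and 14.54 in experiment 1 under CpG and 13.75 and 13.62 in experiment 2, the reverse of its unstimulated order.

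Other genes had a larger positive gap under CpG. St6gal1, a sialyltransferase gene, read 11.14 to 11.50 log2 without stimulus in experiment 1 and 11.68 to 11.70 in experiment 2, and under CpG 8.90 and 8.92 against 11.38 and 11.22. Hepacam2, an immunoglobulin-family adhesion gene, read 7.73 and 7.86 under CpG in experiment 1 and 10.59 and 10.36 in experiment 2, beside unstimulated gaps of 0.63 to 0.76. The low values are those of experiment 1 under CpG for both genes. Nts, neurotensin, lay under the filter on every array but those of experiment 1 under CpG, so its change has no measured low side. It read 11.01 and 10.63 under CpG in experiment 1 against 7.10 and 7.04 in experiment 2. Under TNF, Hfe, the haemochromatosis gene, read 10.10 and 10.19 in experiment 1 and 11.69 and 11.52 in experiment 2, with an unstimulated gap of 0.22. Kazald1 gave the opposite course: its unstimulated gap of -1.85 log2 shrank to -0.67 under TNF and -0.27 under CpG.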

How the data were processed

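The data are the deposited log2 expression values of 14 arrays, which the authors made by RMA in R 3.0.1, per the submitters' processing notes (settings not given in the sources used here). RMA includes quantile normalisation, so a global shift between arrays is removed, and levels are not comparable between probe sets. The design text describes 2 independent experiments, and the replicate number in the labels was taken as the experiment's number, which they do not state. For each of 18193 genes named by the array annotation on 1 probe set or more, the brightest probe set on average stood for the gene, and it was tested where at least 2 of the arrays fitted exceeded 7.52 log2, the median of all values.

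The model was fitted with limma 3.58.1 in R 4.3.3 (2-sided tests, Benjamini-Hochberg over all genes tested, called at 0.05): pre-treatment and experiment on the 6 unstimulated arrays (2 residual degrees of freedom), group and experiment on the 8 stimulated arrays (3), and an experiment term per stimulus on all 14 (4). A median 95% interval reached 0.12 log2 to either side; the number of arrays limits precision. The comparison and the 37 gene lists were chosen with earlier results of these data known. Genes named are the 15 largest called differences each way with 1 sign in 3 pairs, the 3 largest called members of each list, other list members with their values, sex-linked markers, and the 5 largest called changes of the gap each way. Motifs were searched in RefSeq promoter windows. The fits were tested on simulated data. Alternatives were other scalings, filters, probe set rules, variance priors, array weights, no pre-treatment block and leaving out arrays or pairs.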

Additional observations from a re-analysis of the deposited data

Results flagged for a closer look

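The gap between experiments differed between CpG and unstimulated arrays, by an interaction term in limma with an adjusted p under 0.05, for the genes that follow (values are the gap under CpG minus the gap without stimulus, log2). The gap was more positive under CpG for Crisp3 (0.45), Itgae (0.37), Mrc1 (0.80), Ccr2 (0.50), Ccdc80 (0.60), Clec4b1 (0.81), Fcrls (0.61), F7 (0.26), Ramp1 (0.66), St6gal1 (2.07), Hepacam2 (1.99), Lpar3 (1.93), Uck2 (1.86) and Ddr1 (1.84). It was more negative for Saa3 (-2.32), Tjp1 (-0.63), Gja1 (-0.57), Lox (-0.36), S1pr3 (-1.41), Hilpda (-0.71), Ptgs2 (-3.10), Slamf1 (-0.35), Ccl5 (-1.96), Cd72 (-0.49), Car4 (-0.46), Nts (-3.86), Cxcl11 (-3.72), Ifit1bl1 (-3.03) and Isg20 (-2.99).

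The gap between experiments differed between TNF and unstimulated arrays, by an interaction term in limma with an adjusted p under 0.05, for the genes that follow (values are the gap under TNF minus the gap without stimulus, log2). The gap was more positive under TNF for Lox (0.47), Crisp3 (0.67), Itgae (0.55), Cd72 (1.03), Mrc1 (0.67), Ccdc80 (0.67), Ramp1 (0.55), Hfe (1.25), Hepacam2 (1.21), Kazald1 (1.19) and Cd207 (1.18). It was more negative for Saa3 (-1.73), S1pr3 (-0.41), Ccl5 (-0.80), Pf4 (-0.83), Cxcl3 (-1.47), Gpr155 (-1.17), Dscaml1 (-1.14) and Ccl1 (-1.08).

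The genes are those of the 15 largest unstimulated differences each way and the 5 largest changes of the gap each way, so the size of the latter was what chose them. Nts lay under the brightness filter of 7.52 log2 on all arrays but those of experiment 1 under CpG, and Gja1 and Lox on the unstimulated arrays of experiment 1, so their values rest on a low side that was not measured. Kazald1 lay near that filter in experiment 2 with and without stimulus. No explanation was tested.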

How the results depend on the processing

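The count of called genes without stimulus stayed within 1.5 times of 4762 under the alternatives run, except with all probe sets in place of 1 per gene (8291), where more features were tested, and it ran from 3290 to 4756 when an array or pair was left out. After stimulation the count of 4397 became 6954 with all probe sets and 6849 with all 14 arrays in 1 fit, and 2199 to 4361 with a pair left out. For the change of the gap under CpG it was 2575 with reference-gene scaling and 2007 to 3910 with a pair left out. For TNF it was 199 when probe sets were averaged, 186 with all probe sets, and 69 to 367 with a pair left out. The cause was not tested. Leaving out pairs in the interaction fits was chosen after seeing the data. No unstimulated gap reversed among the 133 genes that the naming rule picked and the fit tested, over the alternatives run, and 114 kept their call in each. Of the 10 genes named for TNF, 3 lost the call with averaged probe sets and 3 without the unstimulated CLIK148 pair. Without the filter on dim genes 9 of 37 list medians moved by more than the spread between pairs. With the replicate number as the block, no paired analysis was possible because that number is the factor compared; the block used throughout was the pre-treatment. Only 2 experiments exist, dim genes are bounded by background, and cultures cannot be told apart from hybridization.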
